A study of Mus musculus with 11 samples.

Results

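Expression of 6 genes of urate handling and of the Slc17 transporter family was examined in 11 whole-kidney samples of young lupus-prone mice. The genes were Slc17a1, Slc17a2, Slc17a3, Slc2a9, Xdh and Pdzk1, chosen by name, and each had 1 row among the 16475 genes with values. The NZB/W group held 7 kidneys from mice aged 6 weeks, and the NZW/BXSB group 4 kidneys from mice aged 8 weeks. All mice were prenephritic and non-proteinuric, and none was treated. The study gives the NZB/W mice as female hybrids of NZB and NZW, and the NZW/BXSB mice as male hybrids of NZW and BXSB that carry the Yaa locus, with a second copy of Tlr7 on the Y chromosome. Kidneys were perfused with saline before harvest. Sex, age and genetic background therefore differed together between the groups and cannot be told apart. Expression was measured on Affymetrix arrays as log2 values per Entrez gene. In RNA of whole kidneys, fewer cells of a type and less RNA per cell cannot be told apart.

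Urate is made when purines are broken down, and xanthine dehydrogenase, the product of Xdh, catalyses the last steps to it. Most mammals, mice included, degrade urate further through uricase, mainly in the liver. In the kidney urate is filtered and then moved across the tubule wall in both directions, by apical carriers that include the products of Slc17a1 and Slc17a3 and by the urate transporter encoded by Slc2a9. The Slc17 genes were first named for sodium-phosphate transport, and their products also carry organic anions. Pdzk1 encodes a scaffold protein with several PDZ domains, which binds the tails of transporters under the brush border membrane.

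Slc17a2, Slc17a3 and Slc17a1 lie next to each other, in this order, on mouse chromosome 13 in the RefSeq annotation (GRCm38.p6), and the next gene of the row, Slc17a4, was not analysed here. Slc2a9 is on chromosome 5, Xdh on chromosome 17 and Pdzk1 on chromosome 3. Because the neighbours Slc17a2 and Slc17a3 differed in opposite directions between the strains, the 250 bases before the RefSeq start site of each Slc17 gene are shown, 5′ to 3′ on the plus strand of GRCm38.p6. They are the reference sequence and not that of the 2 strains. The windows are chr13:23806743-23806992 (Slc17a2), chr13:23839184-23839433 (Slc17a3) and chr13:23868768-23869017 (Slc17a1, the first of its 2 RefSeq start sites).
Slc17a2: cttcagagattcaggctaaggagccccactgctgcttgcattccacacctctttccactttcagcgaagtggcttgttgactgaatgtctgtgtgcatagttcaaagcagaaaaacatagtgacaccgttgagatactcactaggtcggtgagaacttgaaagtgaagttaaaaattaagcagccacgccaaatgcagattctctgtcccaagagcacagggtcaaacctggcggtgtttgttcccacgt
Slc17a3: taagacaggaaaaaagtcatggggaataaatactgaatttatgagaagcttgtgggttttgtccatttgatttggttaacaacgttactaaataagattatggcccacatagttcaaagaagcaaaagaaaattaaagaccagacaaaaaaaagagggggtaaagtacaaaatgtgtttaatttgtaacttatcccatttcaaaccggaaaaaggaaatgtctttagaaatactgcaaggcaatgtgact
Slc17a1: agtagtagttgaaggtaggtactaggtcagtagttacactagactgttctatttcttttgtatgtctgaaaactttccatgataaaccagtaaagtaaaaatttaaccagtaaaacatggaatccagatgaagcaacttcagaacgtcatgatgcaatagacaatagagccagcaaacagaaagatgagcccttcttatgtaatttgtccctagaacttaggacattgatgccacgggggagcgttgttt

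RefSeq promoter windows of 300 bases, from 250 before the start site to 50 after it, were found for 5 of the 6 genes, 7 windows in all, with none for Xdh. Both strands were searched. The HNF4 element CAAAGTCCA was in 0.475% of all windows and in 1 of the 7, the first window of Pdzk1, beginning at base 15 after the start site. It is shown in capitals within 30 bases at chr3:96830068-96830097 (plus strand).
Pdzk1: caatctttgtcCAAAGTCCAgtgagttcca
A match of letters is a description and shows no binding.

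The arrays as deposited were on different scales in the 2 strains. The median of the 14419 genes called above baseline by the authors in at least 1 strain lay between 7.36 and 7.40 log2 units in NZB/W arrays and between 8.05 and 8.14 in NZW/BXSB arrays, and the median difference of all tested genes, NZB/W minus NZW/BXSB, was -0.69. Levels and differences below are on a common scale, reached by quantile normalization over the 11 arrays, where that median was -0.015. There, limma called 69.4% of the tested genes at a Benjamini-Hochberg adjusted p below 0.05, 33.3% as higher and 36.1% as lower in NZB/W. With so large a share, the counts of called genes below are to be read beside it.

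Calls were made for 5 of the 6 genes, with 3 above and 2 below NZW/BXSB. One of them, Slc17a2, entered the tested genes through its NZB/W baseline call alone. Among genes above baseline in both strains 4 members were called, beside 8898 of all 13138 such genes. Slc17a2 was higher in NZB/W, Slc17a1 and Slc17a3 were lower, Slc2a9 and Xdh were higher by smaller amounts on this scale and below 0 as deposited, and Pdzk1 differed by 0.01 (-0.65 as deposited). The strains did not overlap for the 3 Slc17 genes and overlapped for the other 3, beside 54.6% of all tested genes without overlap. With a limma adjusted p of at most 0.001 and a fold of 1.4 or more, or 0.7 or less, the 3 Slc17 genes were called, beside 27.9% of all tested genes. The fold limits are those of the study, which paired them with a SAM q-value in place of the limma p used here.

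**Figure D1:**
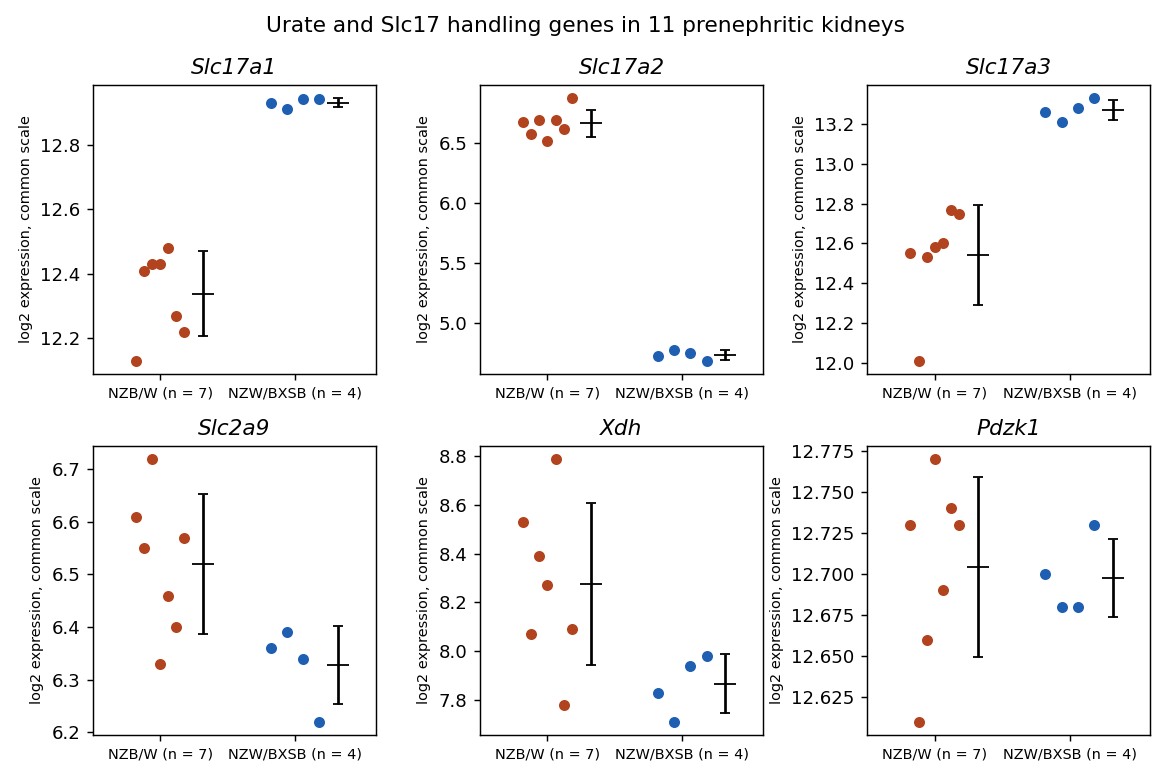
Log2 expression on the common scale (y axis, a separate range for each gene) in the 7 NZB/W and 4 NZW/BXSB kidneys (x axis). Points are single kidneys, and the bars beside them give the mean and SD; the strains are apart for Slc17a1, Slc17a2 and Slc17a3 and overlap for Slc2a9, Xdh and Pdzk1.

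Slc17a1 (Entrez 20504) encodes an apical anion carrier of the proximal tubule, known as Npt1. In NZB/W it ranged from 12.13 to 12.48 with a median of 12.41, and in the 4 NZW/BXSB kidneys it was 12.93, 12.91, 12.94 and 12.94. Each NZW/BXSB kidney lay above each NZB/W kidney, and NZB/W replicates 1, 7 and 6 were the lowest, at 12.13, 12.22 and 12.27. NZB/W averaged 12.34 ± 0.13 (SD, n = 7) and NZW/BXSB 12.93 ± 0.01 (SD, n = 4). The difference, -0.59 (95% interval -0.73 to -0.44), was 1.5-fold (limma adjusted p = 4.06e-06).

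Slc17a3 (Entrez 105355), the gene of the related carrier Npt4, followed the same direction. Its values were 13.26, 13.21, 13.28 and 13.33 in NZW/BXSB, and in NZB/W they ranged from 12.01 to 12.77 with a median of 12.58. NZB/W replicate 2 stood apart at 12.01, since the other 6 kidneys lay between 12.53 and 12.77. NZB/W averaged 12.54 ± 0.25 (SD, n = 7) and NZW/BXSB 13.27 ± 0.05 (SD, n = 4). The difference was -0.73 (95% interval -0.97 to -0.48), or 1.65-fold (limma adjusted p = 7.32e-05). Without NZB/W replicate 2 the difference was -0.63 (limma adjusted p = 1.18e-06).

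Slc17a2 (Entrez 218103), the neighbour of Slc17a3, had the opposite pattern. It was called above baseline in NZB/W and not in NZW/BXSB. In NZB/W it ranged from 6.52 to 6.88 with a median of 6.68, and in NZW/BXSB it was 4.72, 4.77, 4.75 and 4.68. The gap between the strains was several times the range within either. The measured means were 6.67 ± 0.11 (SD, n = 7) and 4.73 ± 0.04 (SD, n = 4), a difference of 1.94 (limma adjusted p = 3.98e-11). The gene entered the fit through its NZB/W baseline call alone, and its spread in NZW/BXSB is one of background values. The p is therefore not read as support for the difference. Because the NZW/BXSB level lay below the 95th percentile of genes not above baseline in that strain (5.03), only a minimum fold can be given, from the means of the groups: Slc17a2 was at least 3.11-fold higher in NZB/W. On the deposited scale the same bound was 2.15-fold. Of all tested genes, 77.4% had a smaller absolute difference than Slc17a1 and 85% a smaller one than Slc17a3.

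Among the tested genes that flank the Slc17 row in the RefSeq order, differences went both ways. On the side of Slc17a2, H1f2, a linker histone gene, differed by 0.17 (adjusted p = 0.262 in the limma fit), Hfe, the haemochromatosis gene, was higher in NZB/W by 0.22, and the histone genes H1f6 and H2bc4 were lower by -0.37 and -0.44. On the side of Slc17a1, Scgn, which encodes the calcium-binding protein secretagogin, was higher by 0.83, Carmil1, a regulator of actin capping, lower by -0.18, and Cmah, a gene of sialic acid hydroxylation, higher by 0.53. None of the 10 flanking genes shown had a difference as large in size as that of Slc17a2, and those of Scgn and Gmnn, the geminin gene (-0.90), were larger in size than those of Slc17a1 and Slc17a3. These flanking genes were taken by position, after the values of the members were known. As deposited, Hfe (-0.48), H1f2 (-0.55) and Cmah (-0.17) had the opposite sign.

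**Figure D2:**
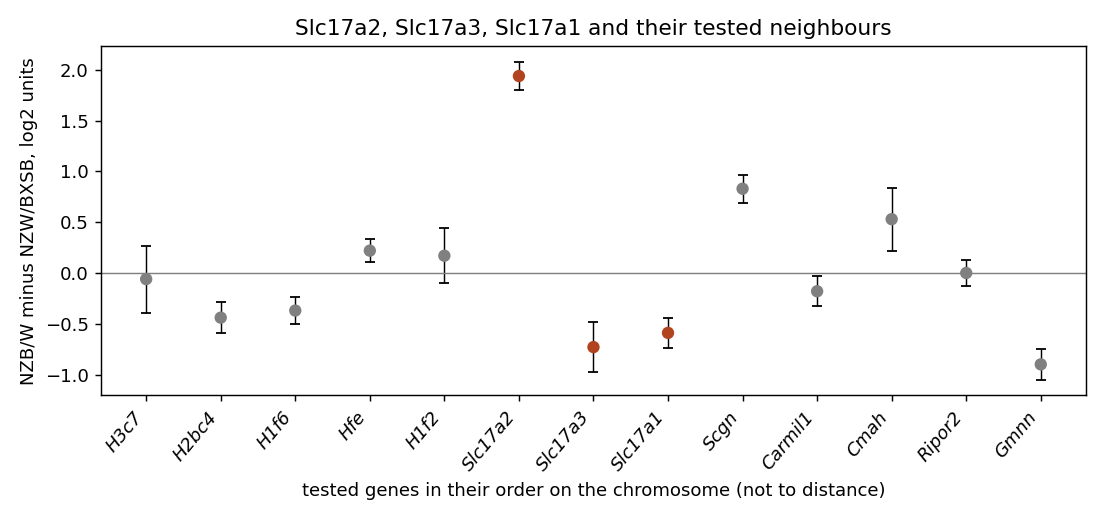
Strain difference (y axis, log2 units on the common scale, above 0 where NZB/W is higher) of the 3 Slc17 genes (red-brown) and the 5 nearest tested genes on each side (grey), in chromosome order (x axis, not to distance). Points are fitted differences and bars 95% intervals; Slc17a2 is at 1.94 beside Slc17a3 at -0.73 and Slc17a1 at -0.59.

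Slc2a9 (Entrez 117591), the urate transporter gene, was low on these arrays in both strains. It ranged from 6.33 to 6.72 with a median of 6.55 in NZB/W, and was 6.36, 6.39, 6.34 and 6.22 in NZW/BXSB. NZB/W replicate 4, at 6.33, lay within the NZW/BXSB range, and the other 6 NZB/W kidneys lay above it. The difference was 0.19 with a 95% interval from 0.04 to 0.34, or 1.14-fold (limma adjusted p = 0.0284), and -0.47 as deposited. The call was lost without NZW/BXSB replicate 3 (0.19, adjusted p = 0.0554 in limma) or replicate 4 (0.16, adjusted p = 0.0940 in limma).

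Pdzk1 (Entrez 59020), the scaffold gene, held nearly the same level in all kidneys on the common scale. Its NZB/W values ran from 12.61 to 12.77 with a median of 12.73, and its NZW/BXSB values were 12.70, 12.68, 12.68 and 12.73, all within the NZB/W range. The difference was 0.01 (95% interval -0.09 to 0.11; limma adjusted p = 0.860), so that a difference beyond 0.11 in either direction lay outside the interval. Of all tested genes, 1.76% had a smaller absolute difference.

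Xdh (Entrez 22436), the gene of xanthine dehydrogenase, was the most variable of the 6 within NZB/W. It ranged there from 7.78 in replicate 6 to 8.79 in replicate 5, with a median of 8.27, and was 7.83, 7.71, 7.94 and 7.98 in NZW/BXSB. The NZB/W kidneys other than replicate 6 lay above all 4 NZW/BXSB kidneys. The means were 8.27 ± 0.33 (SD, n = 7) and 7.86 ± 0.12 (SD, n = 4), which differed by 0.41 (95% interval 0.09 to 0.73), or 1.33-fold (limma adjusted p = 0.0256), and by -0.29 as deposited. The call was lost without NZW/BXSB replicate 1 (0.40, adjusted p = 0.0583 in limma) or replicate 2 (0.36, adjusted p = 0.0783 in limma). Without NZB/W replicates 6 and 7 together the difference was 0.55 (limma adjusted p = 0.00231).

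The scale decided the sign for 3 of the 6 genes. As deposited, Slc17a1 (-1.22) and Slc17a3 (-1.31) kept their direction and call, and Slc17a2 (1.48) kept its direction. Slc2a9 turned to -0.47 (adjusted p = 3.51e-05 in limma), Pdzk1 to -0.65 (adjusted p = 1.46e-07 in limma) and Xdh to -0.29 (adjusted p = 0.0780 in limma), all 3 of them above the median of all genes, -0.69, on that scale. As deposited 89.5% of all tested genes were called, 5.56% as higher and 84% as lower in NZB/W. After median centring 68.3% of all tested genes were called, 34.6% as higher and 33.7% as lower, and all 6 genes kept the sign of the common scale, with differences of -0.52 for Slc17a1, 2.17 for Slc17a2, -0.62 for Slc17a3, 0.22 for Slc2a9, 0.41 for Xdh and 0.05 for Pdzk1.

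**Figure D3:**
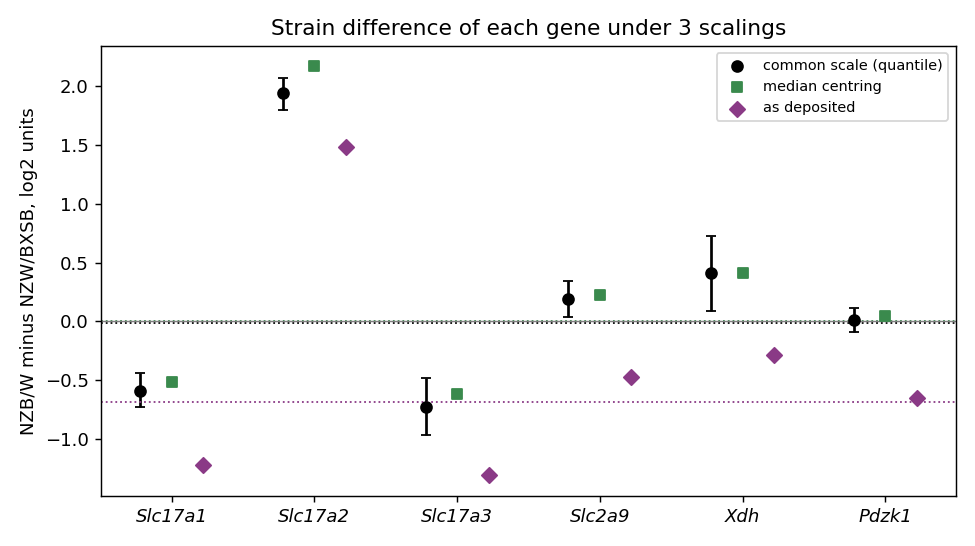
Strain difference of the 6 genes (y axis, log2 units, above 0 where NZB/W is higher) on the common scale (circles, bars are 95% intervals), after median centring (squares) and as deposited (diamonds). Dotted lines are the median of all tested genes on each scale (-0.69 as deposited); the 3 Slc17 genes keep their sign on all 3 scales, and Slc2a9, Xdh and Pdzk1 are below 0 as deposited.

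Ratios between genes within an array are little affected by a shift of the whole array, and were therefore compared between the strains for all 15 pairs of the 6 genes. An exact two-sided permutation test over the 330 splits of the 11 kidneys, with a smallest possible p of 0.00303, was adjusted over the 15 pairs on each scale. On both scales 11 pairs were called, and these were the 11 pairs without overlap between strains. All pairs that hold Slc17a2 were among the called ones. In them its NZW/BXSB level was at background, and the gene was tested through its NZB/W baseline call alone. The p-values of these pairs are therefore not read as support. Among all pairs of tested genes, 55.1% had ratios without overlap on the common scale and 53.3% as deposited, so that 11 of 15 is to be read beside those shares. The log2 ratio of Slc17a2 to Slc17a3 was higher in NZB/W by 2.66 on the common scale and by 2.79 as deposited, with the level of Slc17a2 in NZW/BXSB limited by background. The ratio of Slc17a1 to Slc17a3 differed by 0.14 and 0.09 and was not called (adjusted p = 0.482 and 0.688, exact permutation test). Against Pdzk1, Slc17a1 was lower in NZB/W by -0.60 on the common scale and -0.57 as deposited, and Slc17a3 by -0.74 and -0.67, each without overlap. The ratios of Slc2a9 (0.18 and 0.17) and of Xdh (0.40 and 0.36) to Pdzk1 were not called on either scale (adjusted p = 0.0979 and 0.203 for Slc2a9, 0.0644 and 0.167 for Xdh, exact permutation test). A ratio shows that 2 genes changed unequally, and not which of them changed.

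Within the 7 NZB/W kidneys the 6 genes were compared in pairs. Of the 15 pairs, 0 had an adjusted p below 0.05 in an exact permutation test of Pearson's r, and 1 had an unadjusted p below 0.05. That pair was Slc17a3 and Pdzk1 (Pearson r = 0.82, exact permutation p = 0.0333, adjusted p = 0.5; Spearman rho = 0.67, exact permutation p = 0.117, adjusted p = 0.780; n = 7). Without the 2 kidneys farthest from the median of Slc17a3, one of them replicate 2, its r was 0.32. As deposited r was 0.41 over the 7 kidneys and 0.74 without the 2 farthest, and on the common scale without NZB/W replicates 6 and 7 it was 0.80 (n = 5). Slc17a1 and Slc17a3, which differed between the strains in the same direction, had r = -0.35 within NZB/W (exact permutation p = 0.482, adjusted p = 0.912; rho = -0.18, exact permutation p = 0.713, adjusted p = 0.780). The 4 NZW/BXSB kidneys were too few for a correlation, and there each gene spread by an SD of at most 0.12.

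**Figure D4:**
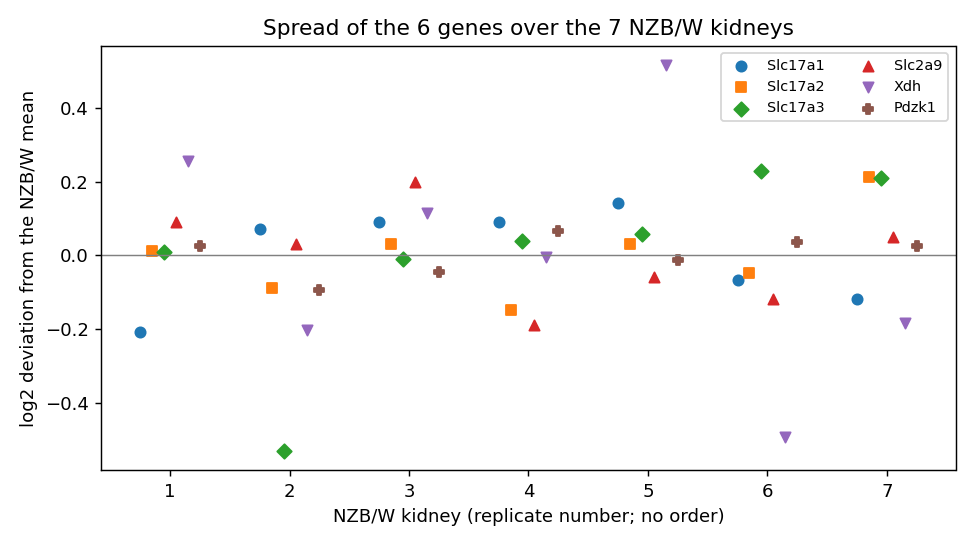
Deviation of each of the 6 genes from its NZB/W mean (y axis, log2 units on the common scale) in the 7 NZB/W kidneys (x axis, replicate numbers without order). Each symbol is 1 gene; Slc17a3 is lowest in replicate 2, and Xdh is highest in replicate 5 and lowest in replicate 6.

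The genes most like each member over the 7 NZB/W kidneys were picked by the highest Pearson r among the 13138 genes above baseline in both strains, and are given as a description without a p, since they were chosen for their r. With so few kidneys, between 25 and 124 genes reached an r of at least 0.9 with each member. For Slc17a1 they were Nup155, Map3k3 and Zfp329 (r = 0.99 each), and for Slc17a3 they included Slc39a3, a zinc transporter gene (r = 0.98). For Slc17a2 they were Layn, 4930563E22Rik and Izumo1r (r = 0.98, 0.97 and 0.96). For Slc2a9 they were Glipr1, Ptprg and Serinc4 (r = 0.97 each). For Xdh they were G6pdx, which encodes glucose-6-phosphate dehydrogenase, Tmem176b and Rras (r = 0.97 each), and for Pdzk1 Acp2, Bcl2l12 and Spring1 (r = 0.98, 0.97 and 0.97). The strain differences of the genes named here ran in both directions, from -0.45 for Ptprg to 1.07 for 4930563E22Rik.

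Genes with roles next to those of the 6 were split in direction on the common scale. Of 10 measured genes of other urate transport, 5 rose and 4 fell in NZB/W relative to NZW/BXSB. Their median difference was 0.15, beside -0.015 for all tested genes. The lower ones included Slc22a6, the organic anion exchanger of the basolateral membrane (11.93 ± 0.10 in NZW/BXSB, n = 4, against 10.82 ± 0.34 in NZB/W, n = 7, a difference of -1.11), Slc22a12, the apical urate exchanger (-0.43), and Abcg2, an apical efflux pump for urate (-0.23). The higher ones included Slc22a8, a second basolateral anion transporter (10.19 ± 0.33 in NZB/W, n = 7, against 8.70 ± 0.04 in NZW/BXSB, n = 4, a difference of 1.49), Abcc4, an efflux pump (0.65), and Slc2a12, a sugar and urate transporter gene (0.26). As deposited 2 of these genes were higher and 6 lower, Slc22a8 was still higher (0.80), Slc2a12 was lower (-0.42), and Abcc4 was not called (-0.06). The limma adjusted p of these 6 named genes lay between 7.14e-07 and 0.00345 on the common scale.

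Of 14 tested genes of purine breakdown and salvage, 4 rose and 5 fell in NZB/W (median 0.10). The guanine deaminase gene Gda, whose product supplies xanthine, was lower (6.03 ± 0.15 in NZB/W, n = 7, against 6.61 ± 0.12, n = 4, a difference of -0.58), as was Hprt, which salvages hypoxanthine and guanine (-0.23). The uricase gene Uox was higher (5.76 ± 0.19 in NZB/W, n = 7, against 5.30 ± 0.07, n = 4, a difference of 0.46). Both levels lay near the 95th percentile of genes not above baseline, which was itself higher in NZB/W (5.42) than in NZW/BXSB (5.03). Pnp, the purine nucleoside phosphorylase gene, differed by 0.14, Ada, the adenosine deaminase gene, by 0.07 and Aprt, which salvages adenine, by -0.11, and none of these 3 was called (limma adjusted p = 0.132, 0.480 and 0.232). Each was called under some alternative on the common scale or after centring. Pnp was called without NZB/W replicates 6 and 7 (0.22, limma adjusted p = 0.0145). It was also called in replicates 1 to 4 of each strain, with a replicate block (0.27, limma adjusted p = 0.0113) and without one (0.27, limma adjusted p = 0.00244). Ada was called after median centring (0.19, limma adjusted p = 0.0458) and Aprt without NZB/W replicate 1 (-0.16, limma adjusted p = 0.0281). As deposited 0 of the list were higher and 12 lower, and Uox was not called (-0.09). Xdh shares its molybdenum cofactor with aldehyde and sulphite oxidases, and of 8 genes of this cofactor and its enzymes 3 rose in NZB/W and 1 fell (median 0.045). The aldehyde oxidase genes Aox3 (0.69) and Aox1 (0.37) were higher, Mocos, whose product sulphurates the cofactor of Xdh, differed by -0.08 (limma adjusted p = 0.223) and Suox, the sulphite oxidase gene, by 0.08 (limma adjusted p = 0.407). Aox1, at a mean of 5.72 in NZB/W and 5.36 in NZW/BXSB, also lay near the percentiles given for Uox, and its lowest NZB/W value was 5.20. Mocs3, which acts in making the cofactor, was the lower one (-1.04, named after its value was seen). As deposited 0 of the 8 were higher and 6 lower, and neither Aox gene was called.

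Among 11 measured PDZ scaffolds and partners of Pdzk1 in the brush border, 5 were higher and 2 lower in NZB/W, with a median of 0.19. The scaffold genes Slc9a3r1 (-0.25) and Pdzd3 (-0.28) were lower, and Pdzk1ip1, which encodes a small membrane protein bound by Pdzk1, was higher (0.27). Of the sodium-phosphate cotransporter genes, Slc34a3 was higher (10.73 ± 0.17 in NZB/W, n = 7, against 9.50 ± 0.06, n = 4, a difference of 1.23), and Slc34a1 differed by -0.06 (95% interval -0.23 to 0.11; limma adjusted p = 0.487). After median centring Slc34a1 differed by 0.17 (limma adjusted p = 0.0383). The peptide transporter gene Slc15a2 was higher (0.48), and the carnitine transporter gene Slc22a5 differed by -0.18 (limma adjusted p = 0.0914), and by -0.23 without NZB/W replicate 5, where it was called (limma adjusted p = 0.0158). As deposited 1 gene of the list, Slc34a3 (0.51), was higher and 10 were lower.

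Of 4 transcription factor genes of the tubule, 1 was called, Rxra, which encodes a retinoid X receptor and was higher by 0.26 (limma adjusted p = 0.000764; named after its value was seen). Hnf4a, the gene of a nuclear receptor of the proximal tubule, differed by -0.03 (limma adjusted p = 0.791). As deposited 0 were higher and 3 lower, Rxra among them (-0.44). Of the other Slc17 genes, 3 were tested and 2 were higher, Slc17a9, the vesicular nucleotide transporter gene, by 0.25 and Slc17a7 by 0.23 (named after its value was seen), while Slc17a5, the lysosomal sialic acid exporter gene, differed by -0.03 (limma adjusted p = 0.680). As deposited all 3 were lower.

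**Figure D5:**
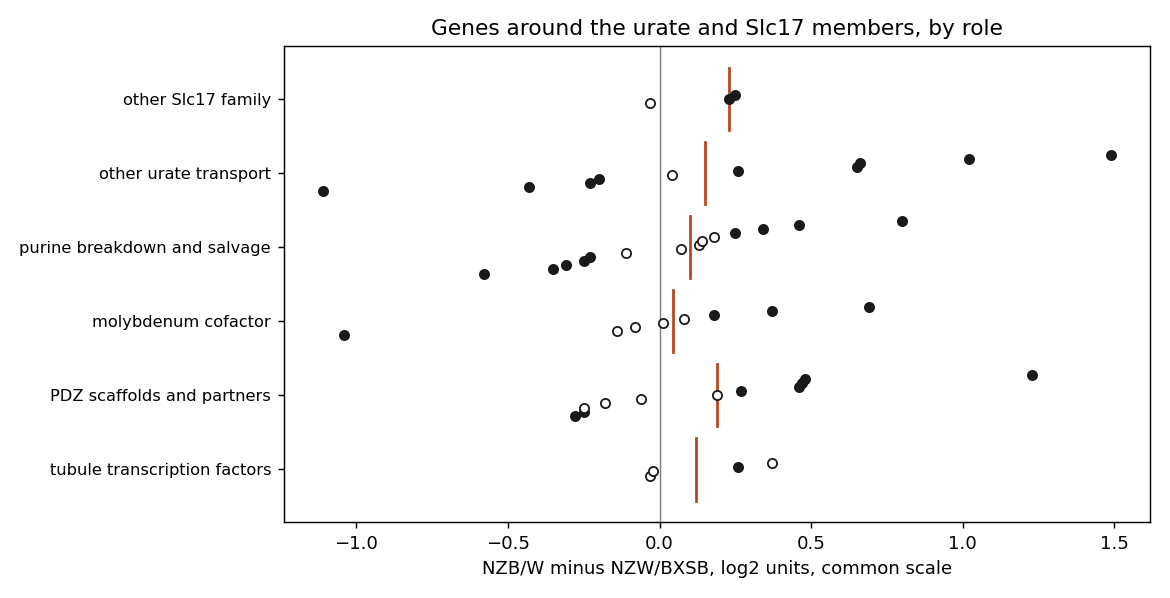
Strain difference (x axis, log2 units on the common scale, above 0 where NZB/W is higher) of the tested genes in 6 lists of related roles (y axis). Each point is a gene, filled where the limma adjusted p is below 0.05, and red-brown bars are list medians; 4 lists hold called genes on both sides of 0 on this scale, and the other Slc17 genes and the transcription factors hold called genes above 0.

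The kidney origin of the samples was checked on their markers, and all 12 proximal tubule markers were measured and above baseline in at least 1 strain. Of these 12, 6 were higher in NZB/W and 2 lower, with list means from 12.23 to 12.50 in NZB/W and from 12.19 to 12.28 in NZW/BXSB. As deposited 1 was higher and 10 lower. Markers of the thick ascending limb (10.35 to 10.56 against 10.01 to 10.12) and of the distal convoluted tubule (10.23 to 10.86 against 9.99 to 10.09) had list means without overlap, higher in NZB/W, as did endothelial (8.61 to 8.94 against 8.26 to 8.54) and leukocyte markers (7.96 to 8.29 against 7.60 to 7.91). As deposited 0 genes of these 4 lists were called higher and 2 or 3 of each were called lower. Collecting duct markers had 3 higher and 0 lower of 6 and list means without overlap (9.24 to 9.44 against 9.05 to 9.21), and podocyte markers 2 higher and 2 lower of 5. As deposited 0 collecting duct markers were higher and 5 lower, and 0 podocyte markers were higher and 4 lower. Among single tested genes 54.6% had no overlap on the common scale, and no such share was computed for means of lists. Of the 6 endothelial markers 4 were higher and 0 lower, and of 5 leukocyte markers 4 were higher and 0 lower. The list means of liver genes lay lower in NZB/W (8.29 to 8.73 against 9.54 to 10.21), with 4 of 5 genes lower, and those of fat markers overlapped (7.98 to 9.27 against 8.77 to 8.99). The liver genes differed unequally (named after their values were seen). Serpina1a differed by -2.91, Cyp2e1 by -2.75, Apoa1 and Ttr by -0.47 each, and Alb by 0.04 (limma adjusted p = 0.913). As deposited 0 of the liver genes were higher and 5 lower. The part of these marker levels in the differences of the 6 genes was not tested.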

How the data were processed

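Arrays of 11 whole kidneys were analysed. The authors normalized the arrays with RMA and deposited them as log2 values, 1 row for each Entrez gene. The methods state joint normalization and batch correction, yet the 2 strains were deposited on unlike scales, and no source used here gives the reason. The authors also deposited other tables that hold a Yes or No call per gene and strain for expression above a baseline set on negative control probes. No count, genome build or array batch is given in the sources used here. An unexplained code in the sample descriptions is shared by NZW/BXSB replicates 1 to 3 and differs in replicate 4. Precision is limited by how many arrays there are.

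Of 16539 rows, 64 control probe sets were left out (3 of them without values), and 16475 genes were quantile-normalized over the 11 arrays (limma 3.58.1, R 4.3.3). The 14419 genes above baseline in at least 1 strain were fitted with lmFit and eBayes, NZB/W minus NZW/BXSB, with Benjamini-Hochberg adjustment over all of them and a call at an adjusted p below 0.05. The script was tested on simulated data. Every SD is between samples. The labels number the samples within a strain and do not say that each is a separate animal. The p-values therefore set a strain difference against the spread between these samples. No 2 arrays of a strain held the same values (at most 0.528% of genes identical).

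Genes were named as in the deposited tables or, where these hold an older symbol, through the RefSeq table of GRCm38.p6, which holds 16229 of the 16475 Entrez numbers. Named genes were the 6 members, genes fixed by role in each list, and the 3 genes with the highest r to each member in NZB/W; genes named otherwise are marked in the text or flank the Slc17 genes. Some of the genes and promoter motifs under this rule are not reported here. Members, lists, the common scale as the main one, and tests were chosen with earlier results of these data known. Permutation tests and correlations were run in Python 3.11.15 with numpy 2.4.6. Alternatives were the deposited values, median centring, other filters, an intensity trend, a replicate block and leaving out replicates. The ratios between members, the flanking genes and the fit of replicates 1 to 4 without a block were added after the data were seen.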

Additional observations from a re-analysis of the deposited data

Results flagged for a closer look

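Among 64 groups of kidneys tested for an outlying sample (each member and each gene named by role, in each strain), 4 held one by Dixon's test, and chance flags about 1 in 20 groups. Slc17a3 in NZB/W replicate 2 stood at 12.01, below the other 6 kidneys of the strain (12.53 to 12.77). In NZW/BXSB, Aox3 was 5.73 in replicate 2 (5.51 to 5.53 in the other 3), Suox was 9.85 in replicate 1 (9.76 to 9.78 in the others), and Slc34a1 was 13.50 in replicate 2 (13.61 in each of the others).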

How the results depend on the processing

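Slc17a1 and Slc17a3 kept their direction and call under every alternative. Slc17a2 did so where it was tested, but drops out when only genes above baseline in both strains are used. Its kept call is not read as support, since its NZW/BXSB level was at background throughout. When each replicate was left out in turn, the differences of Slc17a1, Slc17a2 and Slc17a3 ranged from -0.61 to -0.55, from 1.90 to 1.97 and from -0.76 to -0.63. Those of Slc2a9 ranged from 0.16 to 0.22, of Xdh from 0.32 to 0.49 and of Pdzk1 from -0.0015 to 0.027, and 4 to 5 members were called. As deposited Slc2a9 (-0.47), Xdh (-0.29) and Pdzk1 (-0.65) changed sign. Pdzk1 also did so at values close to 0 without NZB/W replicates 6 and 7 (-0.0014), with a replicate block (-0.0019) and with replicates 1 to 4 of each strain without the block (-0.0019). With the study's fold limits and a limma adjusted p of at most 0.001, 3 members and 4019 genes were called, in place of 5 and 10001. Exact permutation tests over samples, whose p-values are unadjusted, were below 0.05 for the 5 called members (Slc2a9 0.0333, Xdh 0.0455, and 0.00303 for each Slc17 gene) and 0.797 for Pdzk1. The p of Slc17a2 is not read as support here either, because the gene entered the tested genes through its NZB/W baseline call alone.

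Of the lists, the deposited values moved the count of called PDZ scaffolds and partners from 7 to 11 and of transcription factors from 1 to 3; when each replicate was left out in turn the latter was 1 to 2, with 2 without NZB/W replicate 1. No pair of members was called across NZB/W kidneys on either scale or without replicates 6 and 7 (0 of 15). Of the 26 genes named by role, 10 changed sign as deposited: Slc17a9 (-0.40), Slc2a12 (-0.42), Abcc4 (-0.065), Uox (-0.092), Pnp (-0.57), Ada (-0.51), Aox1 (-0.18), Suox (-0.64), Pdzk1ip1 (-0.39) and Slc15a2 (-0.23). Slc34a1 changed sign after median centring (0.17), and Suox with the replicate block and with the same samples without it (-0.014 each). Leaving out single replicates turned Hnf4a (range -0.062 to 0.0071).

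Same-numbered samples of the strains did not deviate together (correlations over genes of -0.0804, 0.275, -0.0023 and -0.128 for replicates 1 to 4), so the numbers do not pair them; 1 of the 4 correlated best with its own number. The block changed no call among the 6 members. Among the genes named by role, Aox1 lost its call with the block (0.35, limma adjusted p = 0.0573) and in the same samples without it (0.0542), while Pnp (0.27, 0.0113 and 0.00244) and Slc22a5 (-0.29, 0.00772 and 0.00319) were called with and without it. In those samples without the block Mocos (-0.15, 0.0365) and Slc34a1 (-0.16, 0.0415) were called too, and Slc34a1 also without NZB/W replicates 6 and 7 (-0.15, 0.0444). The level of Slc17a2 in NZW/BXSB is limited by background.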
